A study of Homo sapiens with 14 samples.

Results

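SOX proteins are transcription factors that bind and bend DNA through a shared high-mobility-group box, and several of them act in the neural crest, the embryonic tissue from which neuroblastoma arises. Here the 10 genes SOX2, SOX4, SOX5, SOX6, SOX8, SOX9, SOX10, SOX11, SOX12 and SOX13 were taken by symbol from the 20049 gene symbols of a count table and followed across 14 human neuroblastoma cell lines. The genes were chosen with earlier results of these data known, and all 10 were present. The lines were SH-SY5Y and its parent SK-N-SH, IMR5-75 and its parent IMR32, and NGP, LS, SK-N-DZ, SK-N-FI, NBL-S, CLB-GA, SK-N-AS, Lan-6, GI-ME-N and SK-N-BE(2)C, each an established culture with 1 library of total RNA. They were grown in RPMI1640 or DMEM with serum and no treatment is labelled. These parentages are general knowledge and not in the labels. The series concerns telomere damage and immunogenicity, and the labels place all lines in 1 group.

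The genes fall into subfamilies by protein sequence. SOX4, SOX11 and SOX12 form SoxC, whose members act in differentiating neurons and, in mice, in the growth of the sympathetic nervous system. SOX8, SOX9 and SOX10 form SoxE, which specifies and maintains the neural crest. SOX10 then serves glia and melanocytes and SOX9 cartilage. SOX5, SOX6 and SOX13 form SoxD, which lack an activation domain of their own and work beside other factors, SOX5 and SOX6 as partners of SOX9 in cartilage. SOX2, of SoxB1, maintains pluripotent cells and neural progenitors.

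Levels are in CPM, a count divided by the scaled library total in the usual way, with scaling between libraries by trimmed mean of M-values factors. The deepest library, LS, held 58644013 counts and the shallowest, Lan-6, 35856642. With 1 library per line there is no replicate check of a single line, and intervals given for single values (95%, exact Poisson) cover counting error only. In bulk RNA, fewer cells of a type and less RNA per cell cannot be told apart. The Lan-6 and GI-ME-N libraries stood apart. Over 6225 stable genes, the deviation of a gene's level had a rho with transcript length of -0.403 in Lan-6 and -0.363 in GI-ME-N, against -0.0921 to 0.231 in the other lines, and the rho with GC content was 0.64 in Lan-6 and 0.227 in GI-ME-N, against -0.354 (LS) to -0.0169 (SH-SY5Y) in the others. Values with that trend removed are given where they matter. The adrenergic markers summed to a median of 3570 CPM over the lines, with the lowest sum, 605 CPM, in SK-N-SH and the highest, 21800 CPM, in Lan-6. Of the Lan-6 sum, CHGA alone made up 16100 CPM, and these sums are not corrected for the trend.

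The RefSeq sequence before the annotated start is shown for SOX12, which was the most even of the 10 genes over the lines, and for SOX13 and SOX2, which varied widely. Each is the plus strand of GRCh38.p14, 250 bases, 5′ to 3′, at chr20:325302-325551 for SOX12, chr1:204072865-204073114 for SOX13 and chr3:181711675-181711924 for SOX2. Capitals mark GC boxes (GGGCGG) and CCAAT boxes (CCAAT), searched on both strands.
SOX12: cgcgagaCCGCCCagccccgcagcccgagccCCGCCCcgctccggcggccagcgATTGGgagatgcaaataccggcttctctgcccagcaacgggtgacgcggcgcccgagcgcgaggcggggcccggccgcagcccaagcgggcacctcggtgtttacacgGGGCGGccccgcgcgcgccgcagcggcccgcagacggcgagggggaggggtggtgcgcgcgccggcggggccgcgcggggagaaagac
SOX13: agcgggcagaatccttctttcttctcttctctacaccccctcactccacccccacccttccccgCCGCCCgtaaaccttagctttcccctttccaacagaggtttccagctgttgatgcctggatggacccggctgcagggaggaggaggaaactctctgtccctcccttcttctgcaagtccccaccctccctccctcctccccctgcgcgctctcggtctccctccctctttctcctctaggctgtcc
SOX2: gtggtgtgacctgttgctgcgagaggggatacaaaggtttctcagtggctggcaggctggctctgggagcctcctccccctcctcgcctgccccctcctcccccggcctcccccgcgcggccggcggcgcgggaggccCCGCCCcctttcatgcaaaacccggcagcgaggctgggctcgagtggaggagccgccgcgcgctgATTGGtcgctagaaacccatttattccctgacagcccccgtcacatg
The SOX12 stretch held 3 GC boxes, 1 CCAAT box and 42 CG dinucleotides, and 98.6% of 35116 promoters of the same length held fewer CG dinucleotides. The SOX2 stretch held 1 GC box, 1 CCAAT box and 20 CG dinucleotides, and the SOX13 stretch 1 GC box and 8 CG dinucleotides. SOX5, not shown, varied more over the lines than SOX2 or SOX13. Its stretch held 27 CG dinucleotides, and 82.3% of promoters held fewer. Among all promoters 42.6% held a GC box and 32.0% a CCAAT box, and the median held 11 CG dinucleotides. CACGTG, an E-box that the MYC family can bind, was in 6.34% of promoters and in none of the 10 stretches that matched 6 of the SOX genes (SOX2, SOX4, SOX5, SOX6, SOX12 and SOX13). A match or its absence describes these letters only.

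All 14 lines held SOX4, SOX11 and SOX12 above 1 CPM. SOX4 (chr6:21592768-21598619, plus strand, GENCODE 29 on GRCh38), an activator with a role in neuronal differentiation, was highest in SH-SY5Y at 335 CPM, SK-N-BE(2)C at 304 and NGP at 290. LS had 211 CPM, SK-N-AS 180, Lan-6 165, IMR32 162, SK-N-FI 149, CLB-GA 147, SK-N-DZ 111 and IMR5-75 95.1. NBL-S with 63.1 CPM, SK-N-SH with 59.1 and GI-ME-N with 32.7 were lowest. The top line was 10.2-fold over the lowest, and the SD of log2 CPM over the lines, 0.97, exceeded that of 59.7% of expressed genes. The counting intervals of IMR32 and Lan-6, of SK-N-FI and CLB-GA, and of NBL-S and SK-N-SH overlap.

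SOX11 (chr2:5692667-5701385, plus strand, 10.2 Mb from MYCN), a factor of immature neurons, was far more uneven. NGP had 892 CPM, SH-SY5Y 571, CLB-GA 444, IMR32 429, SK-N-DZ 343, IMR5-75 336 and LS 307. SK-N-AS had 194 CPM, NBL-S 175, SK-N-FI 137, GI-ME-N 130 and SK-N-SH 64.7. SK-N-BE(2)C, at 8.81 CPM (7.95 to 9.73), and Lan-6, at 8.61 CPM (7.58 to 9.74), lay well under the other 12 lines and overlapped each other, as did SK-N-DZ and IMR5-75. Removing the length and GC trend left SOX11 low in both, with 7.85 CPM for SK-N-BE(2)C and 13 CPM for Lan-6. Its SD of log2 CPM was 2.04, above that of 84.2% of genes.

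SOX12 (chr20:325595-330224, plus strand), the third SoxC gene and a weaker activator, had the smallest spread of the 10, with an SD of 0.65 that exceeded 34.9% of genes. In 13 lines it lay between 64.0 CPM (SK-N-BE(2)C) and 189 CPM (GI-ME-N), with a median of 115 CPM over all 14, and reached 379 CPM in Lan-6. Its transcript is 62.0% GC, and with the trend removed Lan-6 held 259 CPM and GI-ME-N 170 CPM.

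**Figure D1:**
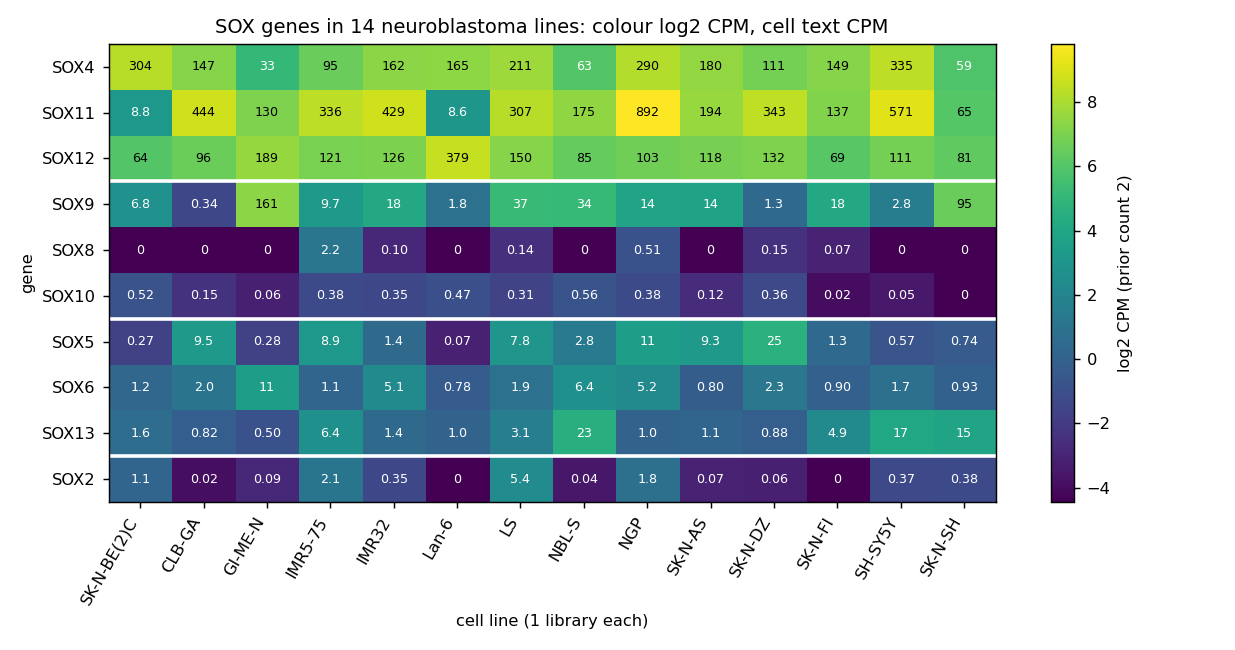
Level of each SOX gene (rows, by subfamily) in each line (columns, 1 library each); colour is log2 CPM and the text in a cell is CPM. SOX4, SOX11 and SOX12 are above 1 CPM in all 14 lines, SOX11 dips to 8.81 CPM (SK-N-BE(2)C) and 8.61 CPM (Lan-6), and SOX10 stays under 1 CPM throughout.

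Per kilobase of annotated transcript, the lines differed in which SoxC gene was most abundant. SOX11 led in 7 lines, SOX4 in 4 and SOX12 in 3, or in 7, 3 and 4 lines with the trend removed. In NGP SOX11 made up 58.7% of the SoxC level, SOX4 28.5% and SOX12 12.8%. In SK-N-BE(2)C SOX4 made up 77.8% and SOX11 1.51%. Lan-6 had little SOX11 as well, at 0.888%, but there SOX12 took 73.7%, as it took 66.6% in GI-ME-N and 50.1% in SK-N-SH. LS had nearly equal shares, with 34.7% SOX4, 34.0% SOX11 and 31.3% SOX12. The summed SoxC level ran from 35.1 CPM per kb in SK-N-SH to 174 in NGP.

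**Figure D2:**
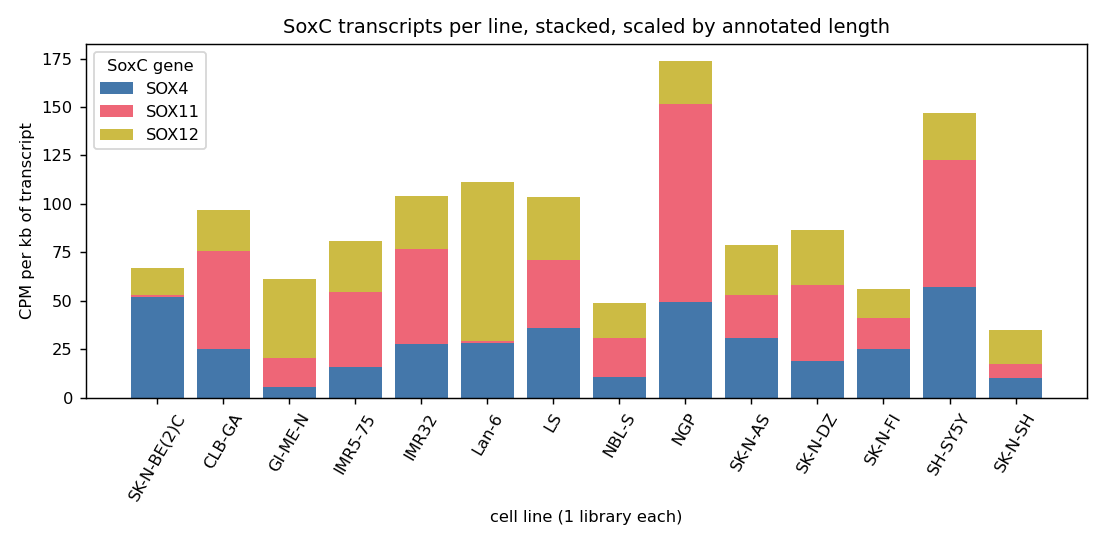
SOX4, SOX11 and SOX12 stacked per line in CPM per kb of annotated transcript, 1 library per line. SOX11 is 1.51% of the stack in SK-N-BE(2)C and 0.888% in Lan-6, and SOX12 is 73.7% of it in Lan-6.

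SOX9 was the SoxE gene these lines held. SOX9 (chr17:72121020-72126420, plus strand), a regulator of crest induction and of cartilage, had the widest spread of all 10, with an SD of log2 CPM of 2.40 that exceeded 89.1% of genes. GI-ME-N had 161 CPM (149 with the trend removed) and SK-N-SH 95.2, then LS 37.3, NBL-S 34.4, IMR32 18, SK-N-FI 17.8, NGP 14.4 and SK-N-AS 13.6. IMR5-75 had 9.70 CPM, SK-N-BE(2)C 6.83, SH-SY5Y 2.84, Lan-6 1.83, SK-N-DZ 1.30 and CLB-GA 0.338. The highest line was 477-fold over the lowest. Among neighbours in this order, counting intervals overlap between LS and NBL-S, IMR32 and SK-N-FI, NGP and SK-N-AS, SH-SY5Y and Lan-6, and Lan-6 and SK-N-DZ.

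SOX10 (chr22:37970686-37987422, minus strand), the factor of crest progenitors, Schwann cells and melanocytes, did not reach 1 CPM in any line. Its highest level was 0.559 CPM (27 counts) in NBL-S, its median 0.329 CPM, and it had 0 counts in SK-N-SH (95% interval up to 0.101 CPM). The gene overlaps POLR2F, a polymerase subunit gene on the opposite strand with a median of 33.4 CPM. The strand setting of the counting is not given in the sources used here, so reads of the overlap cannot be told apart. SOX4, SOX5, SOX6, SOX9 and SOX12 also have annotated antisense genes, which were not analysed here, and the same holds for them. SOX8 (chr16:981808-986979, plus strand), a SoxE gene partly redundant with the other two in the crest, had 98 counts in IMR5-75, or 2.17 CPM. NGP followed with 19 counts, LS with 8, SK-N-DZ with 7, and IMR32 and SK-N-FI with 4 each. SOX8 had 0 counts in the other 8 lines, for which the 95% interval reaches up to 0.125 CPM in Lan-6, the library with the highest limit.

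Genes that SOX10 is known to serve gave a mixed picture. Of 15 glial and melanocyte genes listed, 13 were in the table. The Schwann lineage genes CDH19 and FABP7 stayed at or under 0.713 and 0.428 CPM. ERBB3, the neuregulin receptor, reached 13.5 CPM in NBL-S, while the second highest line, Lan-6, had 3.49 CPM. SOX10 ranked highest in NBL-S too, at 0.559 CPM (0.369 to 0.814). However, SK-N-BE(2)C overlapped it with 0.524 CPM of SOX10 (0.332 to 0.786) and had 1.41 CPM of ERBB3. RET and PMP22 had the highest means of the list, 242 and 41.4 CPM, and RET, a receptor that sympathetic neuroblasts also use, reached 1450 CPM in CLB-GA. Among 14 crest specifiers outside the SOX family, 13 were in the table. TFAP2B averaged 122 CPM and reached 481 CPM in SH-SY5Y, and TWIST1 averaged 81.1 CPM, while FOXD3, a partner of the SoxE factors in early crest, exceeded 1 CPM in IMR5-75 alone, at 2.81 CPM. That line also held the most SOX8.

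The SoxD genes and SOX2 were each raised in a different set of lines. SOX5 (chr12:23529500-24562544, minus strand) was highest in SK-N-DZ at 25 CPM, then NGP at 11.4, CLB-GA at 9.5, SK-N-AS at 9.30, IMR5-75 at 8.86 and LS at 7.80. NBL-S had 2.75 CPM, IMR32 1.35 and SK-N-FI 1.28, and the other 5 lines were below 1 CPM, down to 0.0678 CPM (2 counts) in Lan-6. SOX13 (chr1:204073115-204127743, plus strand), known from T cell and neural tube development, was highest in NBL-S at 23.0 CPM, SH-SY5Y at 17.1 and SK-N-SH at 14.7. IMR5-75 had 6.36 CPM, SK-N-FI 4.89 and LS 3.12, and the rest lay between 0.496 CPM (GI-ME-N) and 1.55 CPM (SK-N-BE(2)C).

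SOX6 (chr11:15966449-16739591, minus strand) had 10.9 CPM in GI-ME-N, 6.36 in NBL-S, 5.22 in NGP and 5.09 in IMR32, and the other lines 0.780 CPM (Lan-6) to 2.27 CPM (SK-N-DZ). Its order depended on the scale. In the authors' deposited log2 values NBL-S was highest at 8.94, IMR5-75 had 8.11 and GI-ME-N 8.03, although IMR5-75 had 1.11 CPM. SOX6 has 5 annotated transcripts and overlaps C11orf58 on the opposite strand (median 174 CPM). SOX2 (chr3:181711924-181714436, plus strand, within the noncoding gene SOX2-OT) had 5.43 CPM in LS, 2.10 in IMR5-75, 1.75 in NGP and 1.12 in SK-N-BE(2)C. It was below 0.4 CPM in the other 10 lines and at 0 counts in Lan-6 (95% interval up to 0.125 CPM) and SK-N-FI (up to 0.0666 CPM).

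Of the 9 further SOX genes listed, 5 were in the table and 3 passed the filter used for the tests. SOX7, a SoxF gene of endothelium, reached 47.3 CPM in SK-N-BE(2)C, against 15.4 CPM in SH-SY5Y, the next line. SOX18, its relative in vessels, reached 5.19 CPM in SK-N-AS and SOX15 3.39 CPM in IMR32. SOX17 had no more than 3 counts in any line. Endothelial markers summed to 10.1 CPM or less in every line.

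Among the 8 SOX genes at 1 CPM or more in at least 3 of 12 lines (SH-SY5Y and IMR5-75 left out as derivatives), SOX11 and SOX5 had the closest pattern of the 28 pairs, with r = 0.815 and rho = 0.881 on log2 CPM. With the trend removed these were 0.771 and 0.783, and without Lan-6 and SK-N-BE(2)C (n = 10) they were 0.666 and 0.794. The points share libraries and depth, so this is a description. SOX4 and SOX11 had r = -0.0232 and rho = 0.133 over the 12 lines, but 0.719 and 0.661 over the 10 lines without Lan-6 and SK-N-BE(2)C, where SOX11 was low and SOX4 was not. These are the 2 lines farthest from the SOX11 median, so leaving them out favours a higher value for this pair.

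Of 12497 genes that averaged 5 CPM or more, the gene most like SOX11 was CACHD1, which codes for a calcium channel-related membrane protein. Likeness is the lower of r and rho over the 12 lines, and here it was 0.958, and 0.915 without Lan-6 and SK-N-BE(2)C. CACHD1 too was low in SK-N-BE(2)C (9.33 CPM) and Lan-6 (5.97 CPM) and stood at 71.6 CPM in NGP. MTF2 and GJC1 came next at 0.912 and 0.888. SOX9 was most like THBS2, a matrix protein gene (0.889), SERPINH1, a collagen chaperone gene (0.869), and COL5A1, a collagen gene (0.865). SOX5 was most like FBXO21 (0.935), GCC2 (0.922) and RNF122 (0.916), and SOX12 like TXNL4A (0.912), PMF1 (0.86) and PXMP2 (0.853). The SOX12 values fell to 0.783, 0.713 and 0.624 with the trend removed. SOX4 was most like CEP44 (0.866), C2orf16 (0.86) and ESRRG (0.855), and over all 14 lines CEP44 had 0.525. The closest genes were RIMS1 (0.901), LNPK (0.867) and FDFT1 (0.818, but 0.511 over all 14 lines) for SOX6, and KIF28P (0.917), NOA1 (0.891) and IRF2BP2 (0.88) for SOX2. SOX13 had no gene as close, with RAB11A at 0.734 (0.416 over all 14 lines), FOSB at 0.727 and GOLGA8N at 0.725.

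The levels were next set against a state score, the mean of 15 mesenchymal markers minus the mean of 15 adrenergic markers, none of them a SOX gene. Neuroblastoma lines are known to lie between these states. GI-ME-N scored 9.04, SK-N-SH 8.81, LS 2.98 and SK-N-AS 1.89, and the other 8 of the 12 lines lay between -1.09 (NGP) and -4.20 (Lan-6). SOX9 rose with the score, by 1.40 log2 per SD of the score (SE 0.38; adjusted p = 0.0455, edgeR quasi-likelihood test over all genes). It was the 1 of 8 SOX genes called, beside 6.34% of all 15611 genes tested (3.58% rising and 2.76% falling), so the count is near the background. Several alternatives ended the call. Leaving out the pair at the mesenchymal end, SK-N-SH and GI-ME-N, gave a slope of 0.64 (adjusted p = 0.672). Removing the length and GC trend gave 1.33 (adjusted p = 0.0547), and leaving out 1 line at a time kept the call in 3 of 12 fits, those without CLB-GA, Lan-6 or NBL-S. It was lost without GI-ME-N, SK-N-SH, LS, IMR32, SK-N-DZ, SK-N-BE(2)C, NGP, SK-N-FI or SK-N-AS, with slopes of 1.05 to 1.80 over all 12 fits. Fibroblast markers moved with the score only in part. Their sum ran from 10.5 CPM in Lan-6 to 14300 CPM in SK-N-SH, where COL1A1 held 8730 CPM and COL3A1 5350 CPM. These 2 of the 5 rose with the score. DCN, LUM and PDGFRA had positive slopes but were not called in edgeR's test (adjusted p = 0.34, 0.101 and 0.389). DCN and LUM peaked in SK-N-AS and PDGFRA in NGP. The part of the fibroblast markers in the SOX9 result was not tested. SK-N-AS held 470 CPM of PTPRC, a leukocyte gene, and no other line over 2.91 CPM, with CD3E at no more than 3 counts in any line.

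**Figure D3:**
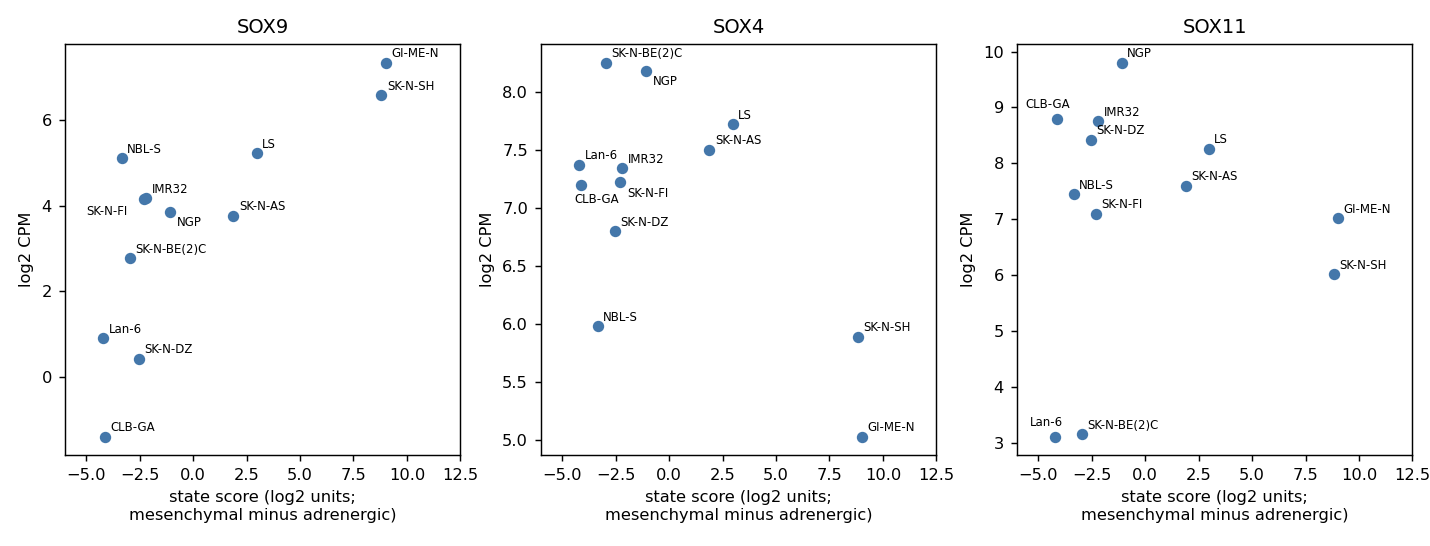
Log2 CPM of SOX9, SOX4 and SOX11 against the state score (log2 units, mesenchymal minus adrenergic) in the 12 lines tested, each point 1 line. GI-ME-N and SK-N-SH, at 9.04 and 8.81 on the score, hold the highest SOX9 and the lowest SOX4. SOX11 is lowest in Lan-6 and SK-N-BE(2)C, at -4.2 and -2.97 on the score. CLB-GA (-4.1) and NBL-S (-3.34) hold 444 and 175 CPM of it.

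No other SOX gene passed the threshold on the state score. SOX4 had a slope of -0.56 (SE 0.28; adjusted p = 0.289 in edgeR's test) and SOX5 -0.92 (SE 0.89). SOX11 had -0.44 (SE 0.58), SOX12 -0.05 (SE 0.21), SOX13 0.18 (SE 0.48), SOX6 0.37 (SE 0.35) and SOX2 1.24 (SE 1.19). The wide errors leave slopes of either sign possible for most of them, and a missed threshold does not show that a level is unrelated to the score. The median slope of the 8 was 0.07, beside -0.01 over all genes. With the MYCN level in the same fit, SOX2 was the 1 gene of the 8 called, beside 609 of 15610 genes. Its slope was 2.84 (SE 0.68, adjusted p = 0.0393 in edgeR's test), and SOX9 had 1.75 (adjusted p = 0.144). Among the lines tested, SOX2 reached 1 CPM only in LS (5.43 CPM), NGP (1.75) and SK-N-BE(2)C (1.12), all rich in MYCN. The other lines tested held at most 14 counts of SOX2. They include IMR32 and SK-N-DZ, with 14 and 3 counts of SOX2, though these held 1440 and 1210 CPM of MYCN, more than LS (949) or NGP (1180). Without LS, NGP or SK-N-BE(2)C, SOX2 fails the filter, so its call cannot be checked by leaving them out.

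**Figure D4:**
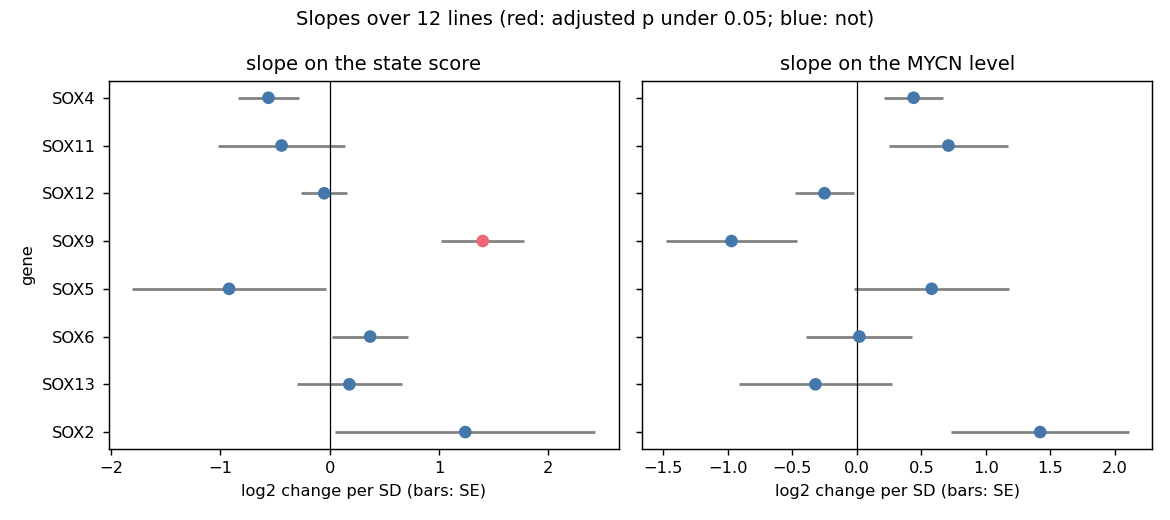
Slope of each SOX gene, in log2 CPM per SD, on the state score and on the MYCN level over 12 lines, with SE bars; red marks an adjusted p under 0.05. SOX9 on the state score, at 1.40, is the only one in red.

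Neuronal genes linked to SoxC fell in part along the same score. Of 9 measured, 3 fell and 0 rose, beside 2.76% of all genes falling and 3.58% rising, and the median slope was -1.30, beside -0.01 over all genes. ELAVL3, a neuronal RNA-binding protein gene, fell by 3.31 log2 per SD (SE 0.32; adjusted p = 1.12e-04, edgeR) and stood at 0.341 CPM in GI-ME-N, against 287 CPM in CLB-GA. DCX, which binds microtubules in migrating neurons, had a slope of -2.81 (SE 0.65; adjusted p = 0.0205) and GAP43, a growth cone gene, -1.46 (SE 0.39; adjusted p = 0.0438). With both mesenchymal-end lines left out none of the 3 stayed called, ELAVL3 having a slope of -1.30 (adjusted p = 0.0609), DCX -0.85 (adjusted p = 0.538) and GAP43 -1.26 (adjusted p = 0.36). DCX also lost its call without either of those lines alone, and GAP43 in 9 of the 12 fits that left out 1 line, all but those without Lan-6, SK-N-AS or SK-N-FI. Without the Lan-6 and GI-ME-N libraries ELAVL3 kept its call (slope -2.69, adjusted p = 0.00151) and DCX and GAP43 did not (adjusted p = 0.117 and 0.118). With subclones in place of parents DCX and GAP43 were not called either (adjusted p = 0.174 and 0.155), and GAP43 was not called with MYCN in the fit (adjusted p = 0.101) or with mesenchymal markers alone (adjusted p = 0.067). The most abundant of the list, STMN1 and TUBB3, averaged 830 and 381 CPM and were not called.

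Of 10 cartilage genes linked to SOX9 with SOX5 and SOX6, 5 were tested, with a median slope of -0.45, and 1 rose with the state score, beside 3.58% of all genes rising. This was MATN3, a cartilage matrix gene, with a slope of 1.42 (SE 0.38; adjusted p = 0.0404, edgeR), and 0.02 (adjusted p = 0.995) with both of those lines left out. It also lost its call without SK-N-BE(2)C, GI-ME-N, NBL-S, NGP or SK-N-SH alone, with subclones in place of parents (slope 0.71, adjusted p = 0.343), with MYCN in the fit (adjusted p = 0.356), with the length and GC trend removed (adjusted p = 0.0505) and without Lan-6 and GI-ME-N (adjusted p = 0.12). COL9A1, a cartilage collagen gene, had a slope of -2.75 (SE 0.96; adjusted p = 0.118). COL2A1, the main cartilage collagen gene, peaked at 11.5 CPM in SK-N-DZ, where SOX5 was highest and SOX9 was 1.30 CPM, and ACAN, the main cartilage proteoglycan gene, stayed at or under 1.06 CPM. HAPLN1, which links that proteoglycan to hyaluronan, had 512 CPM in GI-ME-N, the line with the most SOX9, and 4.18 CPM in the next line, CLB-GA, and did not pass the filter. COL9A2 averaged 10.2 CPM. None of the 8 tested crest specifiers, 10 glial and melanocyte genes or 8 stem and progenitor genes linked to SOX2 was called on the state score by edgeR, while 2, 2 and 0 of them had an unadjusted p under 0.05, beside 20.3% of all genes. Among the last group NES and LIN28B averaged 213 and 49.7 CPM.

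MYCN, whose gene is on the same chromosome arm as SOX11 and is amplified in many aggressive neuroblastomas, had its lowest log2 CPM, -1.24, in SK-N-SH and its highest, 11.11, in SK-N-BE(2)C. No SOX gene of the 8 was called against it, beside 4.02% of 15640 genes (1.14% rising and 2.88% falling), and none had an unadjusted p under 0.05, beside 25.5% of all genes. DESeq2 and limma called 0 as well. SOX11 had a slope of 0.71 log2 per SD of MYCN (SE 0.46; adjusted p = 0.347 in edgeR's test), SOX2 1.42 (SE 0.69), SOX5 0.58 (SE 0.60) and SOX4 0.44 (SE 0.23). These values shifted with the lines and terms fitted, none past the threshold. The SOX5 slope was 0.20 without SK-N-DZ and 1.49 without SK-N-AS, the SOX4 slope 0.67 without SK-N-AS, and the SOX2 slope 2.09 without SK-N-SH and 3.02 (adjusted p = 0.0542) with the state score in the fit. SOX2 passed the filter only through LS, NGP and SK-N-BE(2)C, the lines where it was highest, so its slopes could not be checked without them. SOX9 had -0.97 (SE 0.51, and -0.56 without GI-ME-N), SOX13 -0.32 (SE 0.59), SOX12 -0.25 (SE 0.23) and SOX6 0.02 (SE 0.41). SK-N-BE(2)C and NGP, both rich in MYCN, held 8.81 and 892 CPM of SOX11. MYCN and the state score ran against each other over the 12 lines (r = -0.586), so slopes on the 2 levels are not independent. Of the related genes, SOX7 rose with MYCN, by 1.96 log2 per SD (SE 0.49; adjusted p = 0.0464, edgeR). That call was kept in 2 of the 12 fits that left out 1 line, those without Lan-6 or LS, and lost in the other 10. None of the neuronal, crest, glial, cartilage or stem and progenitor genes was called on MYCN by edgeR, while 2 of 9, 0 of 8, 1 of 10, 2 of 5 and 3 of 8 had an unadjusted p under 0.05, beside the same 25.5% of all genes.

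The derived lines were set beside their parents, with 1 library each and so without a test. SH-SY5Y held more SoxC and less SOX9 than SK-N-SH. SOX4 had 335 CPM in SH-SY5Y and 59.1 CPM in SK-N-SH, a ratio of 5.66 (5.41 to 5.93). SOX11 had 571 CPM in SH-SY5Y and 64.7 CPM in SK-N-SH, a ratio of 8.83 (8.47 to 9.22). SOX9 had 2.84 CPM in SH-SY5Y and 95.2 CPM in SK-N-SH, 33.5-fold lower (28 to 40.4). These were the 3 of 8 SOX genes with enough counts that differed at least 4-fold, beside 19.1% of 17434 genes (9.87% higher and 9.22% lower in SH-SY5Y). SOX12 (ratio 1.37), SOX13 (1.16), SOX6 (1.82), SOX5 (0.774) and SOX2 (0.955) differed less than 2-fold. SOX11 made up 44.7% of the SoxC level per kilobase in SH-SY5Y, against 21.1% in SK-N-SH.

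IMR5-75 and IMR32 differed in other members. SOX8 had 98 counts in IMR5-75 and 4 in IMR32, a ratio of 21.8 (8.23 to 81.4). SOX5 had 8.86 CPM in IMR5-75 and 1.35 CPM in IMR32, a ratio of 6.58 (4.94 to 8.91). SOX2 had 2.10 CPM in IMR5-75 and 0.349 CPM in IMR32, a ratio of 6.02 (3.42 to 11.4). All 3 were thus scarce in IMR32 and higher in the derived line, as was SOX13, with 6.36 CPM in IMR5-75 and 1.35 CPM in IMR32, a ratio of 4.72 (3.52 to 6.43). SOX6 had 1.11 CPM in IMR5-75 and 5.09 CPM in IMR32, 4.6-fold lower (3.36 to 6.39), but in the authors' deposited log2 values it stood higher, at 8.11 in IMR5-75 and 7.54 in IMR32, so its direction is uncertain. In all 5 of 10 SOX genes differed at least 4-fold in the counts, beside 12.7% of 17694 genes (7.13% higher and 5.61% lower in IMR5-75). On the deposited log2 scale none of the 5 reached that limit, with differences of 1.56 (SOX8), 1.54 (SOX5), 1.54 (SOX13), 1.16 (SOX2) and 0.58 (SOX6). The share of all genes past the limit on that scale was not computed. The abundant members differed little, with ratios of 0.588 for SOX4, 0.782 for SOX11, 0.959 for SOX12 and 0.539 for SOX9, and SOX10 had 17 counts in IMR5-75 and 14 in IMR32.

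**Figure D5:**
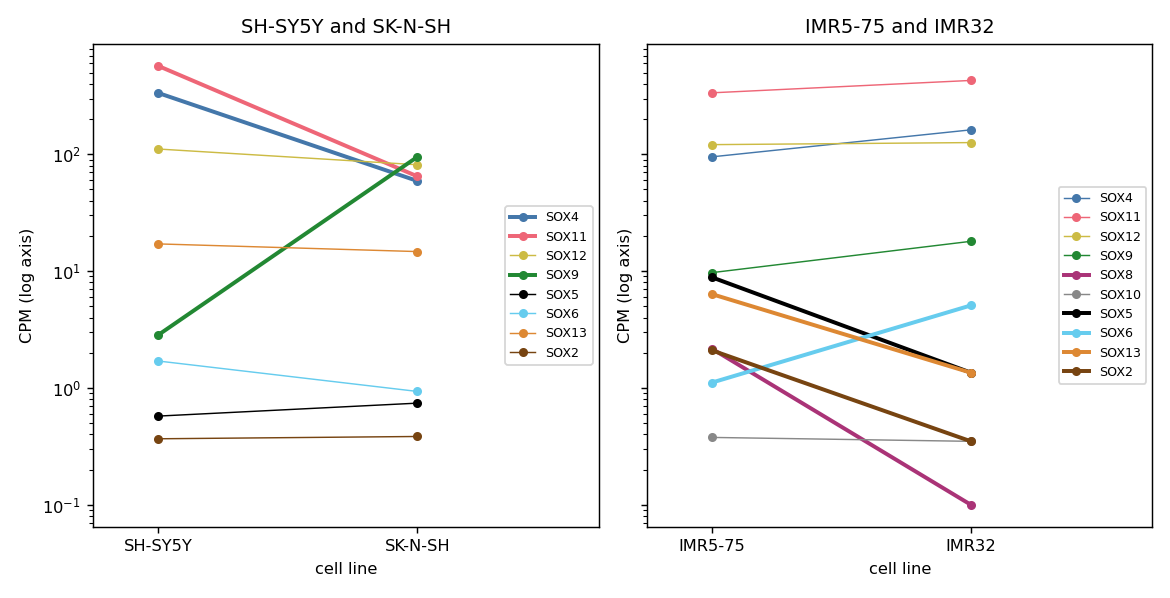
CPM (log axis) of the SOX genes with enough counts in each derived line (left) and its parent (right), 1 library per line; thick lines mark differences of at least 4-fold. SOX4 and SOX11 are higher and SOX9 lower in SH-SY5Y than in SK-N-SH, and SOX8, SOX5, SOX2 and SOX13 are higher and SOX6 lower in IMR5-75 than in IMR32, though SOX6 is higher there in the deposited log2 values.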

How the data were processed

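Per the labels' protocols, TRIzol was used to extract total RNA and TruSeq to prepare libraries. Named without roles in the submitters' processing notes are GRCh38, DESeq2 1.48.2 and kallisto 0.44.0. Neither annotation nor strand setting nor filters are stated there. The authors deposited estimated counts, rounded to whole numbers (a unit read from the values), and variance-stabilised log2 values, which served as an alternative scale. From the counts, CPM were computed with TMM factors, and a prior count of 2 was added for log2 CPM. Depth limits the precision of low counts, and intervals cover counting error only. Slopes over 12 lines came from edgeR 4.0.16 (R 4.3.3; glmQLFit, glmQLFTest) for genes at 1 CPM or more in at least 3 lines, with Benjamini-Hochberg adjustment over all genes and a threshold of 0.05, and the procedure was tested on simulated data. P-values measure the spread between lines, which includes technical differences between single libraries. Ratios between derived line and parent used genes with at least 10 counts in 1 of the 2 lines. Alternatives used DESeq2 1.42.0 and limma 3.58.1, other line sets, and the removal per library of a spline trend on transcript length and GC content. Positions are from GENCODE 29, in which 98.79% of symbols matched 1 gene. Named genes were the 10 SOX genes, per list up to 4 called genes and the 2 with the highest mean, the 3 most alike genes per SOX gene, and markers of the state score; further list genes named in the text were chosen after their values were seen. The SOX genes and gene lists were chosen with earlier results of these data known.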

Additional observations from a re-analysis of the deposited data

How the results depend on the processing

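No paired analysis was possible because the labels give 1 group with 1 library per line. In the edgeR fits on MYCN, 628 genes were called. The count was 2674 with DESeq2's Wald test, 1250 with all 14 lines, 3 with the subclones in place of their parents, 8 with both levels in 1 fit, 1460 without the 2 farthest lines (SK-N-AS and SK-N-SH) and 189 without Lan-6 and GI-ME-N. Leaving out 1 line at a time gave 0 (without IMR32) to 1475 (without SK-N-AS), and each omission but those of CLB-GA and SK-N-FI moved the count by over 1.5 times. On the state score, 990 genes were called. The count was 2384 with DESeq2's Wald test, 563 with the subclones in place, 609 with both levels, 24 without the 2 farthest lines (SK-N-SH and GI-ME-N), and 445 without Lan-6 and GI-ME-N, and leaving out 1 line gave 376 (without GI-ME-N) to 1676 (without Lan-6), with the omission of SK-N-SH also moving it by over 1.5 times. The number of SOX genes called on MYCN was 0 under every alternative run. On the state score it was 0 with the subclones in place, without the 2 farthest lines, with the length and GC trend removed, with mesenchymal markers alone, and without Lan-6 and GI-ME-N, and 0 to 1 without 1 line at a time. The SOX9 slope was then 1.22, 0.64, 1.33, 1.33 and 0.96, always positive. The cause of these shifts was not tested.

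Slopes on MYCN that changed sign, none of them called, were those of SOX6 (-0.01 with 14 lines, -0.25 with subclones in place, -0.32 without the 2 farthest lines, -0.07 with the trend removed, -0.14 to 0.85 without 1 line), SOX13 (0.42 with subclones in place, 0.51 without the 2 farthest lines, -0.75 to 0.78 without 1 line), SOX12 (0.08 without Lan-6 and GI-ME-N) and SOX9 (0.54 with both levels). On the state score, leaving out those 2 farthest lines turned SOX4 to 0.17, SOX11 to 0.28, SOX5 to 0.34, SOX6 to -0.24 and SOX13 to -0.50. SOX12 turned to 0.03 with limma, 0.05 with subclones in place, 0.05 with the trend removed and 0.07 without Lan-6 and GI-ME-N (-0.24 to 0.24 without 1 line), SOX6 to -0.06 with limma and -0.61 without Lan-6 and GI-ME-N (-0.50 to 0.55 without 1 line), and SOX13 to -1.02 with subclones in place and -0.11 with both levels (-0.97 to 0.90 without 1 line). SOX2 had no slope without SK-N-BE(2)C, LS or NGP, since it then failed the filter.

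At a 2-fold limit, 6774 of 17434 genes differed between SH-SY5Y and SK-N-SH and 5894 of 17694 between IMR5-75 and IMR32. The SOX genes past it were the same 3 of 8 and 5 of 10. For SH-SY5Y and SK-N-SH this is near the share of all genes at that limit. Between IMR5-75 and IMR32 the SOX6 log2 difference was -2.15 from the counts and 0.58 in the deposited log2 values, which also put SOX8 at 1.56, SOX5 at 1.54, SOX13 at 1.54 and SOX2 at 1.16; this comparison and those without Lan-6 and GI-ME-N were chosen after seeing the data. Depth limits SOX2, SOX8 and SOX10, whose levels rest on few counts in most lines.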
